A study of Mus musculus with 8 samples.

Results

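The genes described here are 38 antioxidant and glutathione genes of the mouse, chosen by name from what their products are known to do, out of 30495 genes in the deposited count table. They comprise superoxide dismutases and catalase, glutathione peroxidases, peroxiredoxins with sulfiredoxin, the thioredoxin and glutaredoxin proteins, the enzymes that make and recycle glutathione, glutathione transferases, and the regulators Nfe2l2 and Keap1 with heme oxygenase 1. The choice was made with earlier results of these data known, so the shares of members called are a description and not a test. All 38 were found, all 38 were among the 19083 genes with enough counts to test, and each had a mean of at least 5 CPM (counts per 1000000 counts) over the libraries. RNA was sequenced from the right ventricle of female mice aged 8 weeks, wild type (WT) or with the formyl peptide receptor gene Fpr2 knocked out (Fpr2-KO). Controls were kept in normal air for 21 days, and SuHx mice, a model of pulmonary hypertension, were given Sugen at 20 mg/kg with hypoxia for 21 days. There were 2 libraries in each of the 4 groups (WT control, WT SuHx, Fpr2-KO control, Fpr2-KO SuHx). The sources used here do not name the strain, the kind of knockout allele or any vehicle that the controls received.

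Superoxide is turned into hydrogen peroxide by the superoxide dismutases, and the peroxide is then removed by catalase, the glutathione peroxidases and the peroxiredoxins. The last pair of systems draws electrons from glutathione and thioredoxin, which are in turn reduced at the expense of NADPH. The transcription factor encoded by Nfe2l2 (NRF2), held down by KEAP1, is known to drive many of these genes through antioxidant response elements in their promoters. The heart muscle cell is rich in mitochondria, a known source of superoxide.

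The libraries held 67965311 to 76292772 counts, of which 24.18% to 28.21% came from mitochondrially coded genes. Fpr2 had 19 and 23 counts in the WT control libraries, 12 in each WT SuHx library and 0 in all 4 Fpr2-KO libraries, which allows up to 3 counts in each. The genotype label of 3 Fpr2-KO samples ends in another number after Fpr, and the sample titles were followed. The column numbers of 6 libraries do not match the titles' replicate numbers, so libraries are named here by group and column number. The labels do not say whether the libraries of a group came from separate mice, so the p-values measure the spread between these libraries, which may be technical. In Fpr2-KO SuHx library 2 the summed level of 8 atrial muscle markers was 2699 CPM, against 89.35 to 377.7 CPM in the other libraries, and the calls that were lost without that library are named with the counts and values they touch.

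Levels are given per library as CPM of the scaled library, in the order of the column numbers. A gene was called changed when its adjusted p from the quasi-likelihood test of edgeR was under 0.05 over all 19083 genes. Each SuHx effect was estimated in WT, in Fpr2-KO and averaged over both genotypes. In bulk tissue, fewer cells of a type and less RNA per cell cannot be told apart.

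Promoter sequence is shown first, since several of the members that fell with SuHx are known targets of NRF2 and the core of its element can be read directly. The core searched was TGACNNNGC on both strands, in windows from 250 bases before to 50 bases after each RefSeq start on GRCm38.p6, of which a gene can have several (32851 windows for 27025 genes). It was present in 3781 genes, or 14.0%, and in 8 of the 31 members with a window there, or 25.8%. These 8 were G6pdx, Gclm, Mgst1, Nfe2l2, Prdx1, Sod1, Srxn1 and Txnrd1. Of the matched members, 5 of the 10 that were called lower in the averaged SuHx comparison held the core, 0 of the 5 called higher, and 3 of the 16 not called. Without Fpr2-KO SuHx library 2 the calls of Srxn1, Gss and Gstk1 (lower) and of Gpx1, Gpx7 and Glrx5 (higher) were lost. The 7 members with no window were Hmox1, Gclc, Gsta4 and Prdx6, called lower, Sod3 and Msra, called higher, and Gsr, not called. A match is a description of these letters and does not show a bound site. The windows of the 5 lower members are printed below with 10 bases on either side, 5′ to 3′ along the gene's strand, and the core in capitals. In each the core lies on the opposite strand and so reads as its reverse complement, starting with GC and ending with GTCA. Positions are counted from the RefSeq start of the window. For Mgst1 (138140527) and Txnrd1 (82859206) that start lies inside the gene's span in the count table, which begins at 138140316 and 82833951, so these windows lie within the gene as counted, and the other windows of these genes did not hold the core.
Gclm, chr3:122245413-122245441, plus strand, first base of the core 134 bases before the RefSeq start: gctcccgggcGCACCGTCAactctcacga
Mgst1, chr6:138140461-138140489, plus strand, 56 bases before the start: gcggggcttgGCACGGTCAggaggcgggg
Sod1, chr16:90220696-90220724, plus strand, 56 bases before the start: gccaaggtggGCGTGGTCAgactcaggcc
Txnrd1, chr10:82859104-82859132, plus strand, 92 bases before the start: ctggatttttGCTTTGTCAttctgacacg
Srxn1, chr2:152105542-152105570, plus strand, 29 bases after the start: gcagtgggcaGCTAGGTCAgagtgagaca

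Gclm had the core farthest upstream of these, and the whole 250 bases before its start (chr3:122245307-122245556, plus strand, GRCm38.p6) are shown to give its context, with the core in capitals: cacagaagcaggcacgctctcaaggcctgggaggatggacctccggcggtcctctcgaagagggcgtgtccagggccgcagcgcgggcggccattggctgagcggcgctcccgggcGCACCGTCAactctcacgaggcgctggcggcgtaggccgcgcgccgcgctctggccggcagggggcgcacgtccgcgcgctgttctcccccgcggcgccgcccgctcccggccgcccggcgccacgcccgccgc
The related AP-1 site TGANTCA, also searched on both strands, was present in 9.0% of genes and in 4 of the 31 members, which were Glrx, Gstp1, Prdx1 and Srxn1.

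SuHx changed the set in both directions, with more members lower than higher. Averaged over genotypes, 14 members were called lower and 7 higher, together 55.3% of the 38, while 29.6% of all tested genes were called and 40.7% of the 10331 genes with a mean of at least 5 CPM. Catalase, glutathione synthesis (Gclm, Gclc and Gss), several glutathione transferases, Txnrd1, cytosolic Sod1 and Hmox1 were lower, whereas secreted Sod3, the glutathione peroxidases Gpx1, Gpx7 and Gpx8, mitochondrial Sod2 and Glrx5, and the repair enzyme Msra were higher. The share called lower was 36.8% of members against 14.1% of all tested genes and 21.7% of genes with at least 5 CPM, and the share called higher was 18.4% against 15.5% and 19%. The median log2 fold change was -0.04 over the members and 0.01 over all tested genes. With library totals in place of scaled totals the split was 8 higher and 10 lower. Leaving out WT SuHx library 3 left 12 members called, leaving out WT SuHx library 1 left 13, and leaving out Fpr2-KO control library 2 left 14. Without Fpr2-KO SuHx library 2, the library with the atrial markers, 15 were called (4 higher and 11 lower), as Gpx1, Gpx7, Prdx6, Srxn1, Glrx5, Gss and Gstk1 were lost and Gpx3 was gained as lower.

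Within WT, SuHx was followed by 8 lower and 5 higher members, 34.2% of the set, where 20.5% of all tested genes were called, 9.63% lower and 10.9% higher. Among genes with at least 5 CPM, 29.6% were called in WT, 15% lower and 14.5% higher, against 21.1% and 13.2% of the members. Within Fpr2-KO, 10 members were lower and 3 higher, again 34.2%, where 10.7% of all tested genes were called, 5.75% lower and 4.93% higher. Among genes with at least 5 CPM, 16.3% were called in Fpr2-KO, 9.76% lower and 6.59% higher, against 26.3% and 7.89% of the members. The WT and Fpr2-KO comparisons share no library, but both came from 1 fit of all 8 libraries with a shared estimate of spread, so they are linked. Sod1, Cat, Txnrd1, Gclm, Gstm1, Mgst1 and Hmox1 were lower in both, and Sod3, Gpx8 and Msra were higher in both. The share of all tested genes called in both genotypes was not counted, so this overlap is not read as particular to the members. Mgst3 was called lower and Sod2 and Glrx5 higher in WT, and Srxn1, Gclc and G6pdx were called lower in Fpr2-KO, and none of these 6 differences between genotypes passed the interaction test. The remaining 22 members were called in neither genotype, and no member was called in opposite directions. The count in Fpr2-KO depended on single libraries. Without Fpr2-KO SuHx library 2 it fell from 13 to 3, with Cat and Gstm1 kept, the other 11 lost and Gpx3 gained, so that of the 10 members called in both genotypes 2 kept both calls. Without Fpr2-KO SuHx library 3 it fell to 4, with Cat, Sod1, Sod3 and Gpx8 kept, and without Fpr2-KO control library 3 to 6. The count in WT fell from 13 to 7 without WT SuHx library 1 and to 8 without WT SuHx library 3.

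**Figure D1:**
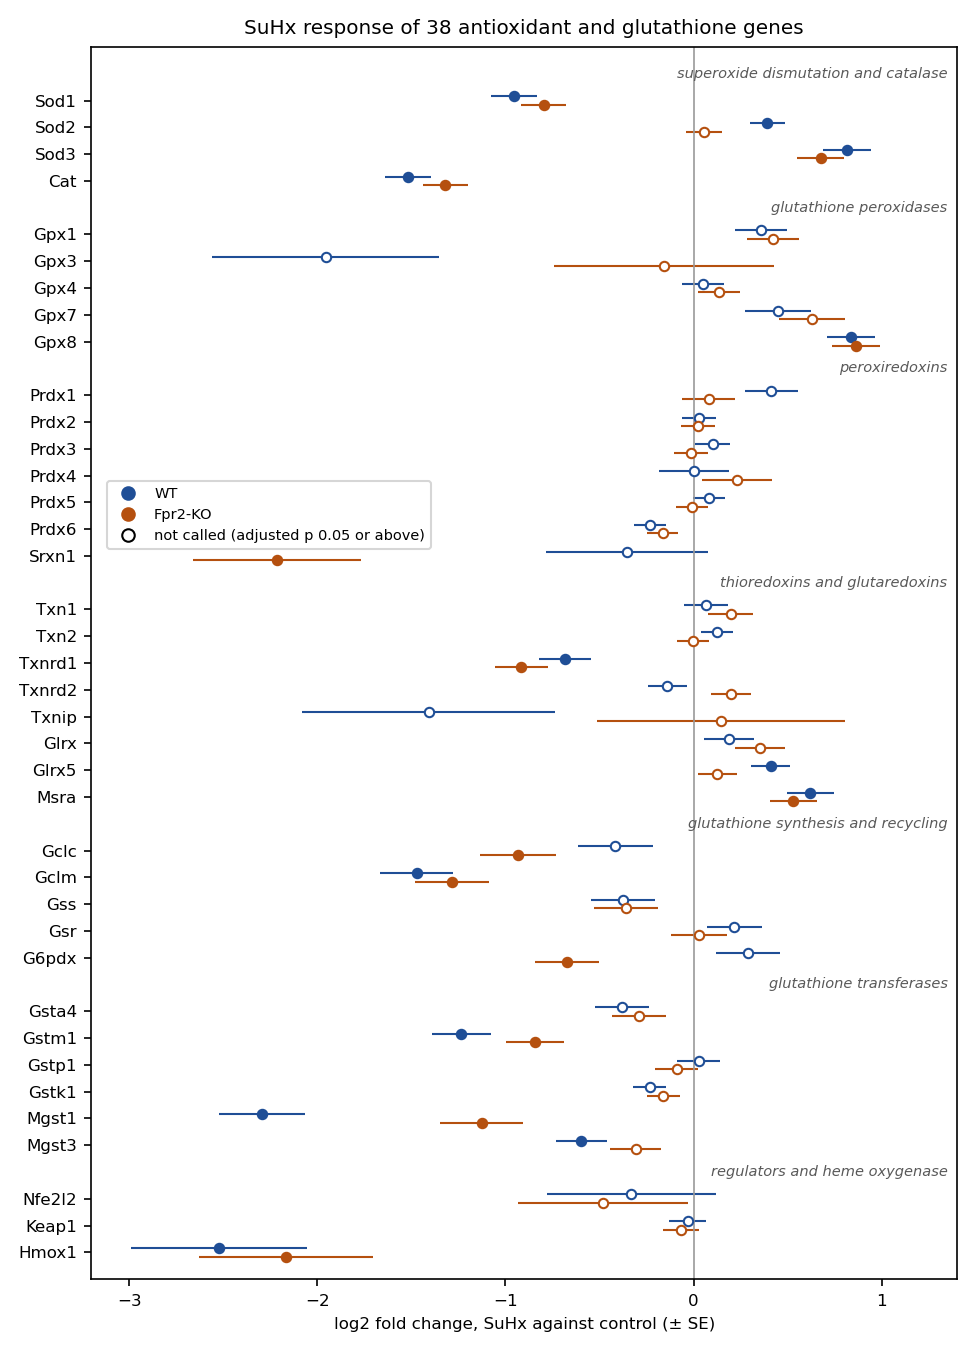
Log2 fold change of SuHx against control for each of the 38 genes, grouped by role, in WT and in Fpr2-KO. Bars are 1 standard error, worked out from the F statistic of the edgeR test (2 libraries in each group). Filled points passed an adjusted p under 0.05, and open points did not. Sod1, Cat, Txnrd1, Gclm, Gstm1, Mgst1 and Hmox1 lie to the left in both genotypes, and Sod3, Gpx8 and Msra to the right in both.

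Among the enzymes that remove superoxide and peroxide, the cytosolic dismutase and catalase fell while the secreted dismutase rose. Sod1 (chromosome 16, 90220754 to 90226329, plus strand, mm10), the cytosolic copper and zinc enzyme, stood at 173.1 and 182.8 CPM in WT controls, 95.26 and 88.37 CPM in WT SuHx, 136.3 and 168.7 CPM in Fpr2-KO controls, and 83.07 and 92.44 CPM in Fpr2-KO SuHx. The 4 SuHx libraries were all below the 4 controls. The averaged log2 fold change of Sod1 was -0.88 ± 0.09 (SE), with an adjusted p of 0.000347 in edgeR. Scaf4 overlaps Sod1 on the opposite strand at a mean of 26.3 CPM against 127 CPM for Sod1, and whether reads were counted by strand is not given in the sources used here.

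Cat (chromosome 2, 103453849 to 103485160, minus strand), whose product breaks down hydrogen peroxide in peroxisomes, stood at 599.3 and 482.1 CPM in WT controls and 195.2 and 181.7 CPM in WT SuHx. In Fpr2-KO it was at 393.7 and 424.2 CPM in controls and 157.5 and 170.3 CPM in SuHx, so that the groups did not overlap in either genotype. The log2 fold change of Cat was -1.52 ± 0.12 in WT (edgeR adjusted p = 0.000539) and -1.32 ± 0.12 in Fpr2-KO (edgeR adjusted p = 0.00213). Cat was the member whose call in Fpr2-KO held under each of the 17 alternative settings.

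Sod3 (chromosome 5, 52363791 to 52371418, plus strand), the secreted dismutase that binds the extracellular matrix, was at 20.54 and 22.74 CPM in WT controls and 39.52 and 36.62 CPM in WT SuHx. It was at 26 and 24.16 CPM in Fpr2-KO controls and 43.62 and 36.48 CPM in Fpr2-KO SuHx. Every SuHx library was above every control, and the averaged log2 fold change of Sod3 was 0.75 ± 0.09 (edgeR adjusted p = 0.000735). Sod2, the mitochondrial manganese enzyme, rose in WT from 334.8 and 355.5 CPM to 434.5 and 471.7 CPM, a log2 fold change of 0.39 ± 0.09 that was called (adjusted p = 0.0213 by edgeR) and was lost under 5 of the 17 alternatives. In Fpr2-KO, Sod2 stood at 398.1 and 385.7 CPM in controls and 387.3 and 426.4 CPM in SuHx, which overlap, and it was not called (0.05 ± 0.09, adjusted p = 0.77 by edgeR).

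The glutathione peroxidases are read best beside the codon at their catalytic position, since some members of the family carry selenocysteine, encoded by TGA, and others cysteine. Of the 38 coding sequences, taken from GENCODE M21, 5 held an in-frame TGA before the stop codon, in Gpx1, Gpx3, Gpx4, Txnrd1 and Txnrd2. For each gene the longest complete coding sequence was read, and codon numbers refer to that transcript only. Which transcript was present in these libraries was not examined. The stretches below run 5′ to 3′ along the coding strand, with the codon in capitals and its number counted from 1 at the start codon.
Gpx1, codon 47: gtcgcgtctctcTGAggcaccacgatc
Gpx3, codon 73: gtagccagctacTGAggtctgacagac
Gpx4, codon 129: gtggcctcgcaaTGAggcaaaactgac
Gpx7, codon 56: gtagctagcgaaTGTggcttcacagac
Gpx8, codon 79: gtggctagtgacTGCcgcttcacagac
In both thioredoxin reductases the TGA is the codon before the last.
Txnrd1, codon 612: cagtctggctgcTGAggttaa
Txnrd2, codon 526: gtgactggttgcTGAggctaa

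Both glutathione peroxidases with a cysteine codon, Gpx7 and Gpx8, were called higher in the averaged SuHx comparison, as was Gpx1 with its selenocysteine codon. Gpx8 (chromosome 13, 113042753 to 113046410, minus strand), an enzyme of the endoplasmic reticulum membrane, was at 9.671 and 11.01 CPM in WT controls and 18.78 and 18.19 CPM in WT SuHx. In Fpr2-KO it was at 11.83 and 12.66 CPM in controls and 22.49 and 22.11 CPM in SuHx. The SuHx libraries lay above the controls in both genotypes, and the averaged log2 fold change of Gpx8 was 0.85 ± 0.09 (edgeR adjusted p = 0.00045). Gpx7, also of the endoplasmic reticulum, rose by 0.54 ± 0.12 on the log2 scale (edgeR adjusted p = 0.0128), and Gpx1, the cytosolic and mitochondrial form, by 0.39 ± 0.10 (edgeR adjusted p = 0.0176), neither being called in WT or Fpr2-KO alone. Without Fpr2-KO SuHx library 2 both averaged calls were lost, with adjusted p = 0.0568 for Gpx7 and 0.072 for Gpx1 in edgeR. Gpx4, which reduces lipid peroxides, had values from 273.6 to 333.5 CPM with overlapping groups and was not called.

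Gpx3, the secreted plasma form, was uneven within 1 group. It stood at 548.5 and 520.5 CPM in WT controls, 132.4 and 143.1 CPM in WT SuHx, 274.5 and 380.9 CPM in Fpr2-KO controls, and 463.9 and 124.7 CPM in Fpr2-KO SuHx. The high SuHx value belongs to library 2, the one with the atrial markers. Gpx3 was not called in WT (log2 fold change -1.96 ± 0.61, edgeR adjusted p = 0.0816) or averaged (-1.06 ± 0.42, edgeR adjusted p = 0.12). Without library 2, Gpx3 was called lower in WT (-1.95, edgeR adjusted p = 0.00118), in Fpr2-KO (-1.40, edgeR adjusted p = 0.0276) and averaged (-1.68, edgeR adjusted p = 0.000604), and its difference between genotypes under SuHx was -0.14. With Fpr2-KO SuHx library 3 left out instead, so that library 2 alone stood for its group, Gpx3 was called higher in Fpr2-KO than in WT under SuHx by 1.77 on the log2 scale (edgeR adjusted p = 0.0492), and it was not called there with all libraries.

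The peroxiredoxins, which reduce peroxides with electrons from thioredoxin, were at steadier levels. Prdx2, Prdx3, Prdx4 and Prdx5 were not called in any comparison, with averaged log2 fold changes from 0.03 to 0.12. Prdx6, the form that uses glutathione, fell by 0.20 ± 0.06 on the log2 scale in the averaged comparison (edgeR adjusted p = 0.0358), a call lost under 12 of the 16 alternatives that could be run there. Prdx1 was at 149.4 and 182.6 CPM in WT controls and 212.9 and 229.5 CPM in WT SuHx, and was not called (log2 fold change 0.41 ± 0.14, edgeR adjusted p = 0.0723).

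Srxn1 (chromosome 2, 152105516 to 152109322, plus strand), sulfiredoxin, which restores overoxidized peroxiredoxins, stood apart in the Fpr2-KO controls. It was at 16.8 and 32.42 CPM in WT controls, 19.94 and 18.62 CPM in WT SuHx, 56.19 and 115.3 CPM in Fpr2-KO controls, and 21.76 and 15.25 CPM in Fpr2-KO SuHx. The Fpr2-KO controls were the highest libraries, and the WT groups overlapped. The log2 fold change of SuHx for Srxn1 was -2.21 ± 0.45 in Fpr2-KO (edgeR adjusted p = 0.0327) and -0.35 ± 0.43 in WT (edgeR adjusted p = 0.62), and the call in Fpr2-KO was lost under 8 of the 17 alternatives, among them leaving out Fpr2-KO SuHx library 2 (edgeR adjusted p = 0.144).

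In the thioredoxin system, the cytosolic reductase fell. Txnrd1 (chromosome 10, 82833951 to 82897712, plus strand) was at 81.26 and 89.38 CPM in WT controls and 50.13 and 56.07 CPM in WT SuHx. In Fpr2-KO it was at 81.48 and 107.8 CPM in controls and 50.08 and 50.25 CPM in SuHx. No SuHx library reached a control, and the averaged log2 fold change of Txnrd1 was -0.80 ± 0.10 (edgeR adjusted p = 0.000832). The thioredoxins themselves, cytosolic Txn1 and mitochondrial Txn2, were not called, with averaged log2 fold changes of 0.13 and 0.06. Glrx5, a mitochondrial glutaredoxin used in iron-sulfur cluster assembly, was called higher in WT (log2 fold change 0.41 ± 0.10, edgeR adjusted p = 0.026), a call lost under 7 of the 17 alternatives, and Glrx was not called (averaged 0.27, edgeR adjusted p = 0.0592).

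Msra (chromosome 14, 64122625 to 64455903, minus strand), which repairs oxidized methionine, rose in both genotypes. It was at 22.87 and 27.82 CPM in WT controls, 38.71 and 39.17 CPM in WT SuHx, 27.82 and 24.83 CPM in Fpr2-KO controls, and 38.17 and 37.9 CPM in Fpr2-KO SuHx. The SuHx libraries lay close together and above all controls, with an averaged log2 fold change of 0.58 ± 0.09 (edgeR adjusted p = 0.00215). Txnip, an inhibitor of thioredoxin that also limits glucose uptake, had the widest range of the 38, from 225.4 CPM in Fpr2-KO control library 2 to 2581 CPM in WT control library 1. It was not called in any comparison.

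**Figure D2:**
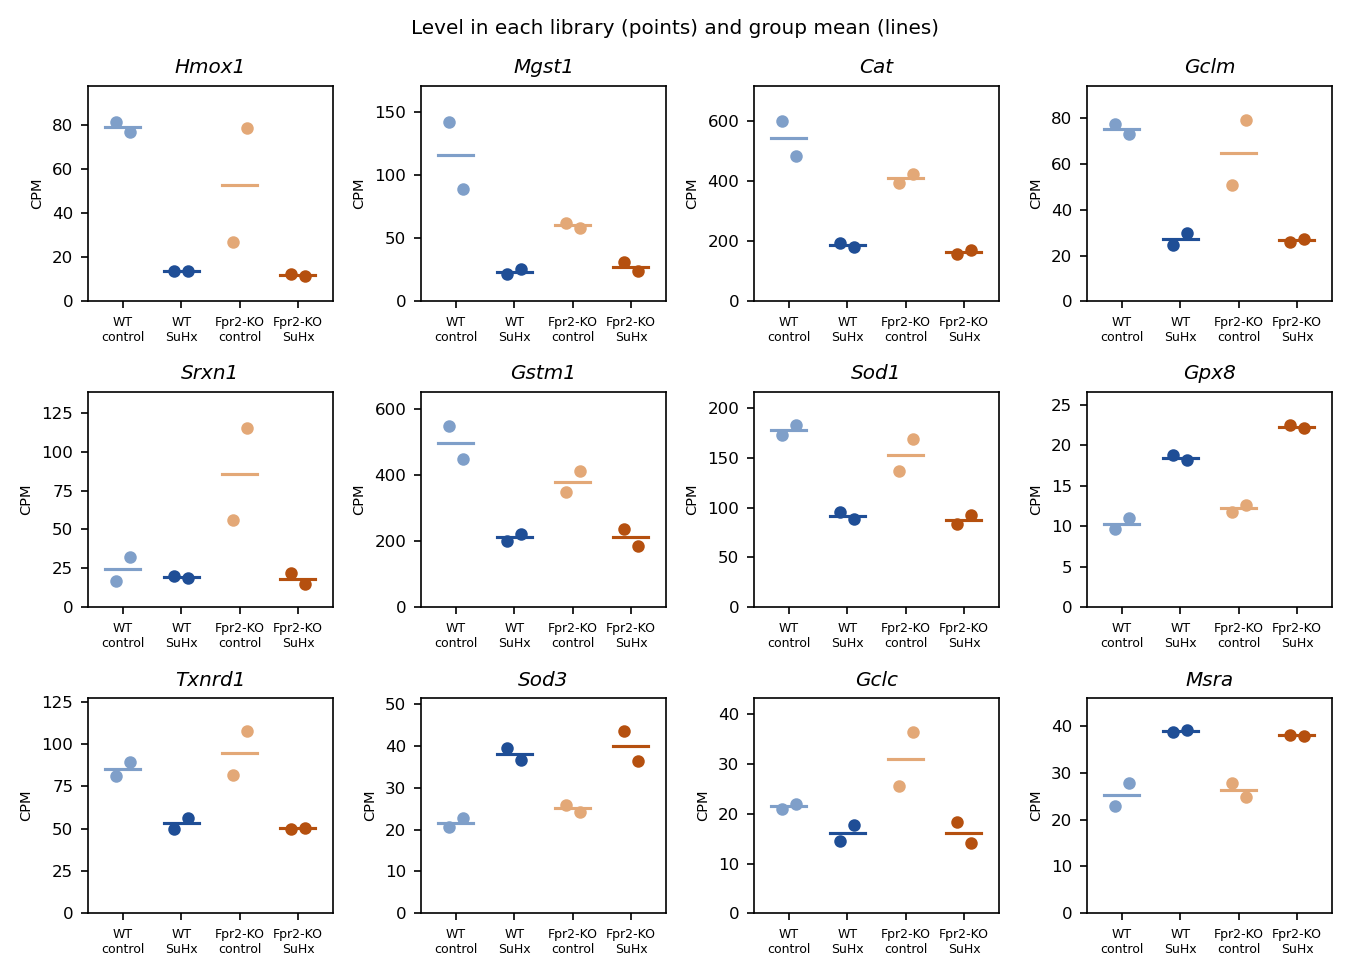
CPM in each of the 8 libraries for the 12 genes with the largest averaged SuHx change among those called. Points are libraries, short lines are group means, and each panel has its own axis from 0. Hmox1, Mgst1, Cat and Gclm are lower in all 4 SuHx libraries than in any control, and Sod3, Gpx8 and Msra are higher in all 4.

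The genes for glutathione synthesis fell. Gclm (chromosome 3, 122245557 to 122270732, plus strand), the modifier subunit of the rate-limiting enzyme, was at 77.36 and 73.1 CPM in WT controls and 24.56 and 29.68 CPM in WT SuHx. In Fpr2-KO it was at 50.76 and 79.18 CPM in controls and 26.11 and 27.25 CPM in SuHx. The groups did not overlap, and the log2 fold change of Gclm was -1.47 ± 0.20 in WT (edgeR adjusted p = 0.00204) and -1.28 ± 0.19 in Fpr2-KO (edgeR adjusted p = 0.00843). Without Fpr2-KO SuHx library 2 the Fpr2-KO value of Gclm was -1.26 and was not called (edgeR adjusted p = 0.0767), and it was not called without library 3 either.

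Gclc (chromosome 9, 77754535 to 77794485, plus strand), the catalytic subunit of the same enzyme, was at 21.08 and 21.97 CPM in WT controls, 14.6 and 17.68 CPM in WT SuHx, 25.55 and 36.54 CPM in Fpr2-KO controls, and 18.35 and 14.15 CPM in Fpr2-KO SuHx. All SuHx libraries were below all controls, by a smaller margin than for Gclm, and the averaged log2 fold change of Gclc was -0.67 ± 0.14 (edgeR adjusted p = 0.00844). Gss, which adds the last amino acid of glutathione, was called lower in the averaged comparison (-0.37 ± 0.12, edgeR adjusted p = 0.0497), a call lost under 13 of those 16 alternatives. Acss2 lies over Gss on the opposite strand at a mean of 38.1 CPM, above the 14 CPM of Gss itself. Gsr, which regenerates reduced glutathione, was not called (averaged log2 fold change 0.12).

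G6pdx, which encodes the first enzyme of the NADPH-yielding pentose phosphate pathway, was at 5.898 and 7.193 CPM in WT controls and 7.82 and 8.161 CPM in WT SuHx, but at 11.02 and 10.2 CPM in Fpr2-KO controls and 6.33 and 6.995 CPM in Fpr2-KO SuHx. Its SuHx libraries were thus the higher pair in WT and the lower pair in Fpr2-KO. The fall in Fpr2-KO was called (log2 fold change -0.67 ± 0.17, edgeR adjusted p = 0.0417), though not under 10 of the 17 alternatives, and the difference between genotypes was not called (interaction -0.96 on the log2 scale, edgeR adjusted p = 0.19). Ikbkg overlaps G6pdx on the opposite strand at a mean of 38.8 CPM against 7.95 CPM for G6pdx.

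Of the 6 glutathione transferases, which couple glutathione to electrophiles and lipid products, 5 were called lower in the averaged comparison. Mgst1 (chromosome 6, 138140316 to 138156755, plus strand), a microsomal form that also reduces lipid peroxides, was at 142.2 and 88.88 CPM in WT controls, 21.62 and 25.49 CPM in WT SuHx, 62.03 and 58.04 CPM in Fpr2-KO controls, and 31.01 and 24.01 CPM in Fpr2-KO SuHx. The SuHx libraries of both genotypes were alike in level, and the controls were higher in WT than in Fpr2-KO. The log2 fold change of Mgst1 was -2.29 ± 0.23 in WT (edgeR adjusted p = 0.000923) and -1.13 ± 0.22 in Fpr2-KO (edgeR adjusted p = 0.0205), and the interaction of 1.17 was not called (edgeR adjusted p = 0.208). The Fpr2-KO call of Mgst1 was lost under 5 of the 17 alternatives, among them leaving out Fpr2-KO SuHx library 2 (-1.33, edgeR adjusted p = 0.0708).

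Gstm1 (chromosome 3, 108012255 to 108017973, minus strand), a cytosolic mu-class transferase, was at 548.7 and 447.6 CPM in WT controls, 200.1 and 223.3 CPM in WT SuHx, 348.3 and 412.5 CPM in Fpr2-KO controls, and 238.2 and 186.4 CPM in Fpr2-KO SuHx. No SuHx library overlapped a control, and the averaged log2 fold change of Gstm1 was -1.04 ± 0.11 (edgeR adjusted p = 0.000459). Gstm1 lies in a cluster of similar genes whose reads the counting could split between copies. Mgst3 fell by 0.45 ± 0.09 (edgeR adjusted p = 0.0084), Gsta4, which acts on the lipid product hydroxynonenal, by 0.33 ± 0.10 (edgeR adjusted p = 0.0393, lost under 8 of those 16 alternatives), and Gstk1, a mitochondrial and peroxisomal form, by 0.20 ± 0.06 (edgeR adjusted p = 0.0436, lost under 13 of those 16 alternatives), all on the averaged log2 scale. Gstp1 was not called (averaged -0.03), and its near-identical copy Gstp2 makes its count uncertain.

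Hmox1 (chromosome 8, 75093621 to 75100589, plus strand), which breaks down heme and is a known NRF2 target, had the largest averaged change of the 38, at 5.08-fold lower with SuHx. It was at 81.28 and 76.52 CPM in WT controls, 13.79 and 13.64 CPM in WT SuHx, 26.87 and 78.54 CPM in Fpr2-KO controls, and 12.2 and 11.26 CPM in Fpr2-KO SuHx. All 4 SuHx libraries were below all controls, and Fpr2-KO control library 2 was the lowest control. The log2 fold change of Hmox1 was -2.52 ± 0.47 in WT (edgeR adjusted p = 0.015, lost under 5 of the 17 alternatives) and -2.17 ± 0.46 in Fpr2-KO (edgeR adjusted p = 0.0383, lost under 10).

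Neither regulator was called with all libraries. Nfe2l2 (chromosome 2, 75675513 to 75704641, minus strand) was at 52.34 and 150.9 CPM in WT controls, 73.93 and 87.74 CPM in WT SuHx, 109.1 and 117 CPM in Fpr2-KO controls, and 79.72 and 82.09 CPM in Fpr2-KO SuHx. The WT control libraries lay on either side of the WT SuHx libraries, and Nfe2l2 was not called (WT log2 fold change -0.33 ± 0.45, edgeR adjusted p = 0.663). Without WT control library 2 the WT log2 fold change of Nfe2l2 turned positive, at 0.63, and without WT control library 1 it became more negative. Nfe2l2 was called in each of these fits, in opposite directions, so its result rested on single libraries. Keap1 (chromosome 9, 21229730 to 21239361, minus strand) was at 50.55 and 49.5 CPM in WT controls, 47.45 and 50.48 CPM in WT SuHx, 52.87 and 48.23 CPM in Fpr2-KO controls, and 48.36 and 48.23 CPM in Fpr2-KO SuHx. All 8 values of Keap1 lay close together and the groups overlapped, with an averaged log2 fold change of -0.05 ± 0.07. These are RNA levels, and NRF2 activity is known to be set largely by protein stability.

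Across all 4 SuHx and all 4 control libraries, 20 members did not overlap, 13 with every SuHx library lower and 7 with every SuHx library higher. That is 52.6% of the members, where 29.3% of all tested genes did not overlap. Every SuHx library was lower for 34.2% of members against 13.6% of all tested genes. The share with every SuHx library higher was near that of all tested genes, at 18.4% against 15.6%. These shares were not counted among genes with at least 5 CPM. The 11 members Cat, Gclc, Gclm, Gpx8, Gstm1, Mgst1, Mgst3, Msra, Sod1, Sod3 and Txnrd1 were called in the averaged comparison under each of its 16 alternative settings. The share of all tested genes called under every setting was not counted, so this is not read as particular to the members.

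Between genotypes no member was called. In controls the edgeR test called 0 of 38, where 2.6% of all tested genes were called (1.43% higher and 1.18% lower in Fpr2-KO) and 4.11% of genes with at least 5 CPM (2.24% higher and 1.88% lower). It found 11 members, or 28.9%, at an unadjusted p under 0.05, where 20.8% of all tested genes were. DESeq2 called 6 of the 38, where it called 1939 of all 19083 tested genes. Those 6 were Srxn1 and G6pdx, higher in Fpr2-KO, and Cat, Txnrd2, Txnip and Mgst1, lower. In edgeR the genotype differences in controls were 1.80 on the log2 scale for Srxn1 (adjusted p = 0.09), 0.70 for G6pdx (adjusted p = 0.069), -0.94 for Mgst1 (adjusted p = 0.0649) and -0.48 for Txnrd2 (adjusted p = 0.0528). Under SuHx the edgeR test called 0 of 38 (0% of all tested genes), with 0 at an unadjusted p under 0.05 where 3.48% of all tested genes were. DESeq2 called 0 of the 38 there, and 17 of all tested genes. The members' log2 differences under SuHx ran from -0.41 to 1.10, the highest being Gpx3. For the interaction the edgeR test called 0 of 38 (0% of all tested genes). It found 5, or 13.2%, at an unadjusted p under 0.05, where 12.7% of all tested genes were. DESeq2 called 2 for the interaction, Mgst1 and G6pdx, where it called 584 of all tested genes. A p above the threshold does not show that the genotypes are alike.

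**Figure D3:**
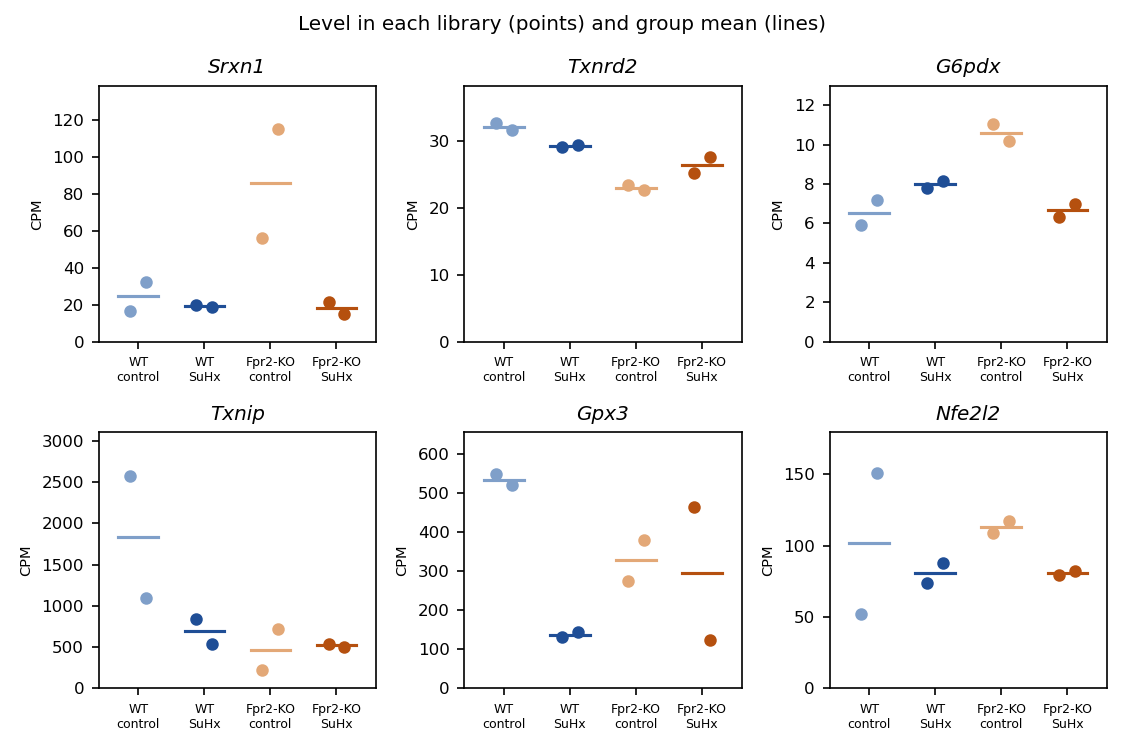
CPM in each of the 8 libraries for Srxn1, Txnrd2, G6pdx, Txnip, Gpx3 and Nfe2l2, chosen for their spread. Points are libraries, short lines are group means, and each panel has its own axis from 0. Txnip spans 225.4 to 2581 CPM within the controls and Srxn1 16.8 to 115.3 CPM, and for Gpx3 the Fpr2-KO SuHx libraries lie apart at 463.9 and 124.7 CPM.

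The controls were less alike than the SuHx libraries. The ratio of the highest to the lowest of the 4 control libraries was 11.4 for Txnip, 6.86 for Srxn1, 3.02 for Hmox1, 2.88 for Nfe2l2 and 2.45 for Mgst1. Prdx5 was among the most even, at 1.05. Over the 38 members the median ratio was 1.31 in controls and 1.18 in SuHx, and over genes with at least 5 CPM it was 1.37 and 1.2, so the members did not stand apart in this.

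Per transcript length, the members spanned a wide range of levels. The deposited FPKM values (fragments per kilobase of transcript, scaled by library depth) were used for the 2 WT control libraries, whose columns match single samples. Txnip was highest there at a mean FPKM of 524.4, but its libraries stood at 726.7 and 322 FPKM. Gstm1 followed at a mean of 303.7 FPKM, Gpx3 at 265.3, Mgst3 at 187.2, Cat at 185.8, Prdx3 at 163.5 and Gpx4 at 160.2 FPKM. The libraries of Mgst3 (177 and 197.4 FPKM) and Cat (201.7 and 170 FPKM) overlapped, so their order is not set. Of the peroxiredoxins the mitochondrial Prdx3 had the highest mean FPKM, and of glutathione synthesis Gclm stood at 10.76, Gclc at 5.148 and Gss at 2.52 FPKM. The lowest mean was that of G6pdx at 1.91 FPKM.

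**Figure D4:**
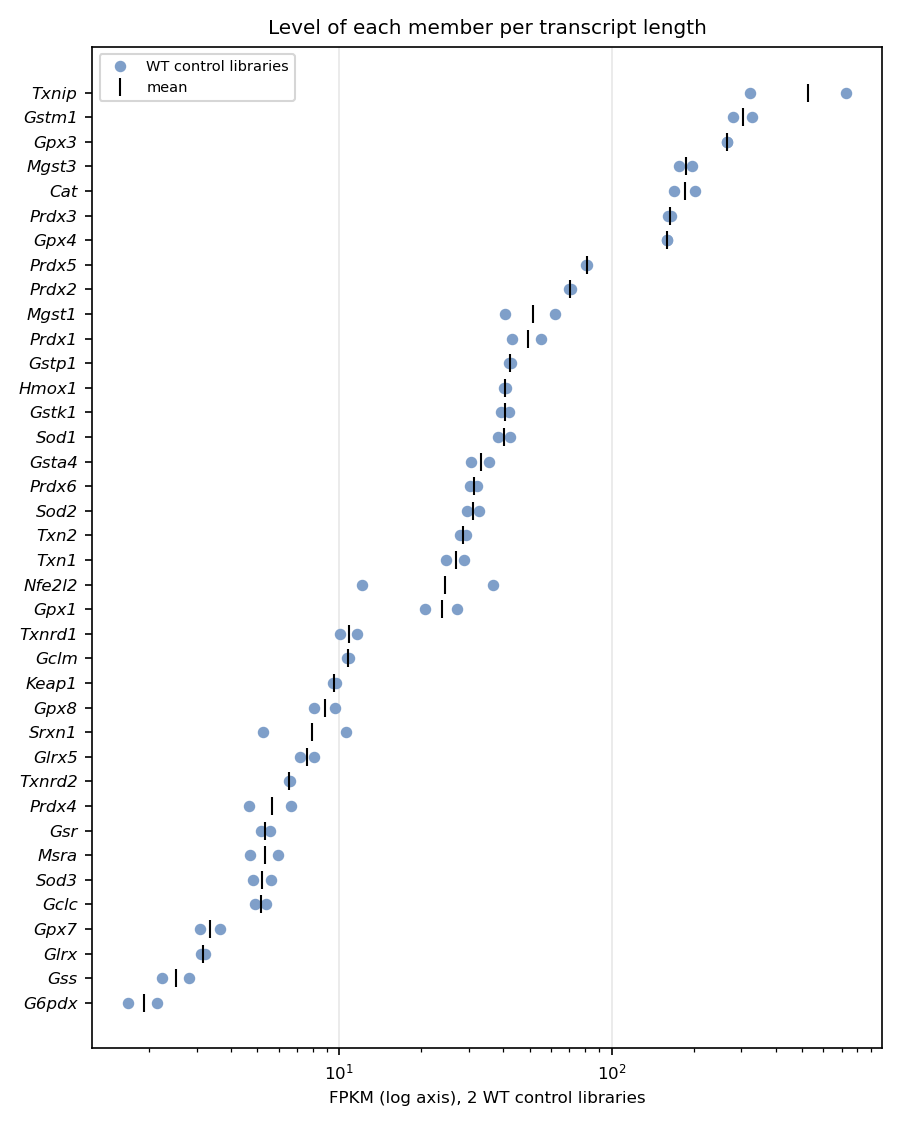
Deposited FPKM of the 38 genes in the 2 WT control libraries, on a log axis, ordered by the mean. Points are libraries and ticks are means. The means run from 1.91 for G6pdx to 524.4 for Txnip.

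Genes of neighbouring pathways, taken from lists of known members, moved in both directions. The NRF2 target list shares Aox1, Me1, Pgd, Fth1, Ftl1 and Slc7a11 with other lists, so the counts are not separate. In the averaged comparison the background for these lists is 29.6% called of all tested genes and 40.7% of genes with at least 5 CPM, with a median log2 fold change of 0.01 over all tested genes. Of 20 further NRF2 targets, 6 were lower and 2 higher, or 40%, with a median of -0.18. Among them, Sqstm1, an autophagy receptor, fell by 1.29 ± 0.08 on the log2 scale (edgeR adjusted p = 8.39e-05), from 895.8 to 310.1 CPM on average in WT and from 645.3 to 310.1 CPM in Fpr2-KO, and the aldehyde oxidase Aox1 fell by 1.17 ± 0.09 (edgeR adjusted p = 0.00017). Nqo1, a quinone reductase often used to read NRF2 activity, fell by 0.40 on the averaged log2 scale (edgeR adjusted p = 0.0182) and was not called within WT or Fpr2-KO. Gsta3, a further transferase, was called lower at -0.49 ± 0.16 (edgeR adjusted p = 0.0499). Its mean was 12.88 CPM in WT controls and 6.74 CPM in WT SuHx, but 7.569 and 7.375 CPM in Fpr2-KO, where the libraries overlapped. Abcc4, an exporter, was called higher at 0.45 ± 0.09.

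Of 16 entries for NADPH supply, 4 were lower and 2 higher, or 37.5%, with a median of -0.14. The mitochondrial isocitrate dehydrogenase Idh2 fell by 0.73 ± 0.08 (edgeR adjusted p = 0.000496), the mitochondrial NAD kinase Nadk2 by 0.58 ± 0.08 and the malic enzyme Me1 by 0.36 ± 0.09, while the cytosolic Idh1 rose by 0.51 ± 0.13. Of 22 genes of glutathione turnover and other transferases, 6 were lower and 3 higher, or 40.9%, with a median of 0.02. Chac2, which degrades glutathione, rose by 0.98 ± 0.15 (edgeR adjusted p = 0.00235), and Gsto1, Gstz1 and Oplah fell by 0.63 ± 0.07, 0.58 ± 0.12 and 0.52 ± 0.10.

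Of 24 peroxisome genes, 6 were lower and 1 higher, or 29.2%, with a median of -0.11, a share at the background of all tested genes. They include Ech1, an enzyme of fatty acid oxidation, which fell by 0.95 ± 0.09 (edgeR adjusted p = 0.0003), and Pex11a, which acts in peroxisome division and fell by 0.86 ± 0.11. Of 17 genes that produce oxidants, 3 were lower and 3 higher, or 35.3%, with a median of 0.17. The phagocyte oxidase subunit Cybb rose by 0.76 ± 0.15 (edgeR adjusted p = 0.00592), beside macrophage and monocyte markers that were also higher in SuHx, and Maob and Xdh fell by 0.75 ± 0.12 and 0.68 ± 0.12.

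Of 16 metal-binding and iron genes, 6 were lower and 3 higher, or 56.2%, with a median of -0.32. The metallothioneins Mt2 and Mt1 fell by 2.26 ± 0.51 (edgeR adjusted p = 0.0252) and 1.64 ± 0.39 (edgeR adjusted p = 0.0304), with control libraries spread from 7.871 to 89.45 CPM for Mt2, and Steap3, an iron reductase, rose in WT from 15.95 and 19.03 CPM to 39.8 and 41.14 CPM (averaged edgeR adjusted p = 0.00102). Of 18 genes of selenium and methionine redox, 3 were lower and 2 higher, or 27.8%, below the background of all tested genes, with a median of -0.04, among them the thioredoxin-like Txnl1, which fell by 0.40 ± 0.08.

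Cell type markers moved between the groups as well. Calls are from the averaged comparison, where 29.6% of all tested genes were called. The summed level of 8 cardiomyocyte markers was 34520 to 45710 CPM in controls and 41090 to 49800 CPM in SuHx, with 4 called higher and 1 lower. In WT these sums were 34520 to 34850 CPM in controls and 48480 to 49800 CPM in SuHx. In Fpr2-KO they overlapped, at 37590 to 45710 CPM in controls and 41090 to 44480 CPM in SuHx. For 14 macrophage and monocyte markers the summed level was 260.5 to 416.4 CPM in controls and 458.3 to 573.7 CPM in SuHx, with 10 of 14 called higher and 0 lower. For 8 fibroblast markers it was 1045 to 1231 CPM in controls and 1193 to 1506 CPM in SuHx, with 4 called higher and 2 lower. The fibroblast sums overlapped in WT, but in Fpr2-KO were 1137 to 1156 CPM in controls and 1443 to 1506 CPM in SuHx. For 8 mural cell markers the summed level was 863.4 to 1017 CPM in controls and 1254 to 1437 CPM in SuHx, with 5 called higher. For 8 endothelial markers it was 624.2 to 711 CPM in controls and 734.8 to 984.9 CPM in SuHx, with 5 called higher and 0 lower, and for 10 lymphocyte markers 1.047 to 5.222 CPM and 3.857 to 7.464 CPM, with 3 of the 9 tested called higher. For 7 adipocyte markers it was 60.96 to 144.6 CPM in controls and 42.76 to 46.61 CPM in SuHx, nearly all of it from Lipe (143.5 of 144.6 CPM in WT control library 1), a lipase that heart muscle also expresses, while Adipoq, Plin1, Cidec, Lep, Retn and Cfd were at 0 in at least 1 library. For 7 red cell markers it was 24.51 to 625.6 CPM over all libraries. For 7 neutrophil markers it was 1.58 to 12.41 CPM in controls, highest in Fpr2-KO control library 3, and 1.681 to 3.482 CPM in SuHx. The part of these markers in the members' changes was not tested.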

How the data were processed

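Right ventricle RNA-seq of 8 libraries was analysed from the deposited gene table, which holds raw counts and, beside them, FPKM values made by the authors. Per the submitters' processing notes, cutadapt 1.9, HISAT2 2.2.1, StringTie 2.1.6, DESeq2, edgeR and mm10 were named, and the role of each is not given in the sources used here. From the counts, genes with too few counts were removed by filterByExpr (11412 of 30495), TMM scaling was applied, and edgeR 4.0.16 (limma 3.58.1, R 4.3.3) was fitted to the 4 group means with a robust quasi-likelihood fit. Each standard error given after ± is the absolute log2 fold change divided by the square root of the quasi-likelihood F statistic. DESeq2 1.42.0 was an alternative. Adjusted p is Benjamini-Hochberg over 19083 genes in each of 6 comparisons. The deposited FPKM values of the 2 WT control libraries served to compare levels between genes, and 6 FPKM columns that match no single sample were not used. The procedure was tested on simulated data.

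The members and lists were chosen with earlier results of these data known. Values in each library are given for the 12 members with the largest averaged change among those called, for members called between genotypes or in the interaction, and for Nfe2l2 and Keap1. Of each pathway list up to 4 called genes with a mean of at least 5 CPM are named, plus Nqo1 and Nnt, and a few genes outside the members are not reported here. Values in each library for Sod2, Gpx3, Prdx1 and G6pdx were added after they were seen. Counts of 0 allow up to 3 counts, and such limits cover counting error only. Alternatives were other scaling, no low-count filter, no mitochondrially coded genes, a fit without the robust option, fits of the compared groups alone, a replicate block, DESeq2, and leaving out libraries.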

Additional observations from a re-analysis of the deposited data

Results flagged for a closer look

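In 2 members the libraries of the genotypes moved in opposite directions with SuHx without overlapping. The share of all tested genes in such an order was not counted, so the 2 are not read as a trait of the set. The difference itself was tested by the interaction term of the edgeR fit. For Txnrd2, the mitochondrial thioredoxin reductase, levels were 32.66 and 31.51 CPM in WT controls and 28.99 and 29.31 CPM in WT SuHx, and 23.33 and 22.64 CPM in Fpr2-KO controls and 25.23 and 27.57 CPM in Fpr2-KO SuHx. The interaction of Txnrd2 was 0.34 on the log2 scale (0.3384, edgeR unadjusted p = 0.0499, adjusted p = 0.394), which did not pass. For G6pdx the interaction was -0.96 on the log2 scale (-0.9586, edgeR unadjusted p = 0.00357, adjusted p = 0.19), which did not pass either.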

How the results depend on the processing

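The count of members called in WT was 13 and ranged from 7 to 16 when single libraries were left out. In Fpr2-KO it was 13, ranged from 3 to 15 when single libraries were left out, and was 7 with Fpr2-KO SuHx library 2 and the first WT control library both left out. The averaged count of 21 ranged from 12 to 19. Between genotypes in controls the count of 0 ranged from 0 to 6 and was 6 in DESeq2, under SuHx it ranged from 0 to 1, and for the interaction it ranged from 0 to 3 and was 2 in DESeq2. Where leaving out a library left an arm with 1 sample, that sample was assumed to vary like the other groups. Same-numbered libraries did not deviate together (correlations of deviations from -0.0234 to 0.0408), so the numbers were not taken to pair them, and with the replicate block the Fpr2-KO count was 7. Over all genes, 3919 were called in WT (1328 without WT SuHx library 1, 2729 with the block, 4904 in DESeq2). In Fpr2-KO 2038 were called (290 without Fpr2-KO SuHx library 2, 1164 with the block, 3249 in DESeq2), and averaged 5646 (3498 without WT SuHx library 1). Between genotypes in controls 497 were called (1939 in DESeq2, 9 with the block, 0 without Fpr2-KO control library 2, 2370 without WT control library 2), under SuHx 0 (17 in DESeq2), and for the interaction 0 (584 in DESeq2, 756 without WT control library 2). With the block 14 members were called in the averaged comparison and 11 in WT. No member result called with all libraries changed sign under an alternative. Of the 228 member results, 76 that were not called changed sign under at least 1 alternative. Of these, Nfe2l2 in WT was called with the opposite sign, at 0.63 without WT control library 2. It was called lower, at -0.90, without WT control library 1. The cause was not tested. With 2 libraries a group, small changes could not be resolved.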

Other observations

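Nnt, which makes NADPH in mitochondria, is listed under 2 overlapping gene IDs on the minus strand of chromosome 13 (119335448 to 119408997 and 119335528 to 119408952, mm10). The shorter had 0 counts in all 4 Fpr2-KO libraries. Summed over both IDs, Nnt was at 788.7 and 644 CPM in WT controls, 545 and 511.5 CPM in WT SuHx, 1482 and 1443 CPM in Fpr2-KO controls, and 797.5 and 842.7 CPM in Fpr2-KO SuHx. The Fpr2-KO libraries were above the WT libraries under the same condition, and the summed level was not tested.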
